A study of Rattus norvegicus with 3 samples.

Results

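Enzymes and regulators of fatty acid synthesis were followed in kidney RNA of rats given a mussel protein hydrolysate, on arrays that carry 30367 probes for 17936 named genes. The 10 genes were Scd1, Scd, Fasn, Thrsp, Acaca, Acly, Elovl6, Me1, Srebf1 and Agpat2, chosen by name because several of them lay among the largest differences from control on these same arrays. All 13 probes that carry one of these names are given, whatever their value. The array's name Scd1 belongs to the gene now called Scd in RefSeq, and the array's name Scd belongs to the gene now called Scd2, so the probes under these names measured different genes. They are called Scd1 and Scd2 here.

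The animals were male spontaneously hypertensive rats of Wistar background, aged 8 to 10 weeks and weighing 280 to 330 g, in groups of 10. One group was given water by mouth, the low-dose group 10 mg/kg/day of the blue mussel hydrolysate (HBMP) and the high-dose group 20 mg/kg/day, each for 28 days. Kidney RNA of 4 rats per group was pooled, labelled with Cy3 and hybridised to 1 Agilent rat array per group. A group is therefore 1 pool on 1 array, no test was possible, and each difference below describes 3 pools with no measure of the spread between animals. No normotensive strain was among the arrays, so all 3 groups share the hypertensive background.

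Fatty acid synthesis turns citrate into acetyl-CoA in the cytosol, carboxylates it to malonyl-CoA and joins these units into palmitate with electrons from NADPH. Elongases and desaturases then lengthen the chain and place double bonds in it, and acyltransferases build the products into phospholipid and triglyceride. The pathway is known mainly from liver and fat, where the transcription factor SREBP1, the product of Srebf1, switches on most of its enzymes. The kidney makes less of this fat and burns fatty acids in its tubules for energy.

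The stearoyl-CoA desaturase genes Scd2, Scd4 and Scd1 lie next to each other in this order on chromosome 1, with 0 annotated genes between neighbours. Thrsp lies on the same chromosome. The windows below span 250 bases before to 50 after the annotated start in RefSeq (build GRCr8) and are shown because Scd1, Scd4 and Thrsp stood past 2-fold above control at both doses, while the Scd2 probe with 10 spots did not. Each is written 5′ to 3′ on the gene's own strand, with every CCAAT box, in either orientation (CCAAT or ATTGG), in capitals. The windows are chr1:253231682-253231981 on the minus strand for Scd1, chr1:253118127-253118426 on the plus strand for Scd2, chr1:253152269-253152568 on the plus strand for Scd4 and chr1:161138915-161139214 on the minus strand for Thrsp.
Scd1: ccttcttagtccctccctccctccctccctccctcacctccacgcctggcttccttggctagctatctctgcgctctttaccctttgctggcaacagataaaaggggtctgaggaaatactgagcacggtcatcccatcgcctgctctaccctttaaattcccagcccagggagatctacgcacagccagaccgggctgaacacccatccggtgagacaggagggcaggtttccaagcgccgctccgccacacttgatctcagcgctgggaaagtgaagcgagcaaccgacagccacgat
Scd2: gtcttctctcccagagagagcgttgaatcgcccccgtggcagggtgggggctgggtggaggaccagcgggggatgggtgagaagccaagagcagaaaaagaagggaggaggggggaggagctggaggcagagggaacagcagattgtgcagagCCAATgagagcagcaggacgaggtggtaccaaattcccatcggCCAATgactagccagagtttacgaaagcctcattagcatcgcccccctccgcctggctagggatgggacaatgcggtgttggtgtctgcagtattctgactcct
Scd4: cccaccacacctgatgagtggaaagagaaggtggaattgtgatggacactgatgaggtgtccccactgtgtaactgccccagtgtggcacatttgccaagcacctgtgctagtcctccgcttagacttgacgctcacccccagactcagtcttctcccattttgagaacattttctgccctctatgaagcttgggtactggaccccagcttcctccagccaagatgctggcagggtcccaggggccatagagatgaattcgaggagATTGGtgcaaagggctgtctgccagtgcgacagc
Thrsp: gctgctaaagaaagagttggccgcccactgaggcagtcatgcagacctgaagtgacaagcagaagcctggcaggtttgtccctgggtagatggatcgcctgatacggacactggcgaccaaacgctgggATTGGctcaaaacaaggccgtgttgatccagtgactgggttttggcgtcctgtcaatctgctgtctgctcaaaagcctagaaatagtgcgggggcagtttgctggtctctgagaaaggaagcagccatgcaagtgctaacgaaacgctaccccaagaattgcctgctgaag

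The Scd2 window held 2 CCAAT boxes, starting at positions -97 and -54, counted with the annotated start as 0. Thrsp held 1 in the reverse orientation at -121, Scd4 held 1 past the start at 16, and the Scd1 window held 0. Both strands of all 33469 RefSeq rat promoter windows of this length were searched, and 37.5% held a CCAAT box. The core of the sterol regulatory element, CACCCCAC, was in 2.70% of all windows and in 0 of the 7 genes of the set that the table holds. Fasn, Acaca and Elovl6 had no window there and were not searched. The GC box GGGCGG was in 33.1% of windows. It occurred 8 times before and after the start of Agpat2, 5 times in Me1 and 1 time in Thrsp. Acly and each of the Srebf1 windows held 3, and Scd1, Scd2 and Scd4 held 0. The E-box CANNTG was in 72.1% of windows. It was in those of Scd1, Scd4, Thrsp, Agpat2, Acly and Srebf1, but not in those of Scd2 and Me1. A match describes letters in a window and says nothing of binding.

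Signals are net spot intensities scaled so that the 75th percentile of probes was equal on the 3 arrays. Above background here means a signal-to-noise ratio of at least 3 in 50% or more of a probe's spots, met by 15317 probes under control, 15794 under the low dose and 16605 under the high dose. Differences are on the log2 scale, so that 1 stands for 2-fold. For probes printed on 10 spots, the same spot compared between the arrays of a dose and of control scattered with a median SD of 0.17 where the dimmer signal was under 100, and of 0.10 above that. This is printing and scanning error only. The podocyte, proximal tubule, thick ascending limb, principal cell and intercalated cell marker lists were above background in full on every array, as fits the labelled tissue. The distal convoluted tubule list had 2 of 3 markers above background on each array. Of 5 endothelial markers, 3 were above background under control, 4 under the low dose and 5 under the high dose.

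Of the set, 4 genes differed from control by 2-fold or more at both doses: Scd1, Thrsp, Fasn and Agpat2. The other 5 genes above background, Scd2, Elovl6, Acly, Me1 and Srebf1, lay within 0.27 of control in either direction by their representative probe (above background on more arrays, then brightest), and Acaca was too dim to measure. At the low dose 4 of the 9 measurable genes were at least 2-fold higher and 0 lower, while of all 9738 named genes measurable on both arrays 2.50% were higher by that much and 0.667% lower. At the high dose 4 of 9 were higher and 0 lower, while 0.849% of 9895 named genes were higher and 0.152% lower. Since the genes were picked for these differences, the counts carry no weight of their own. The median of the 9 genes was 0.23 at the low dose and 0.16 at the high dose, and that of all named genes was -0.11 and -0.04.

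**Figure D1:**
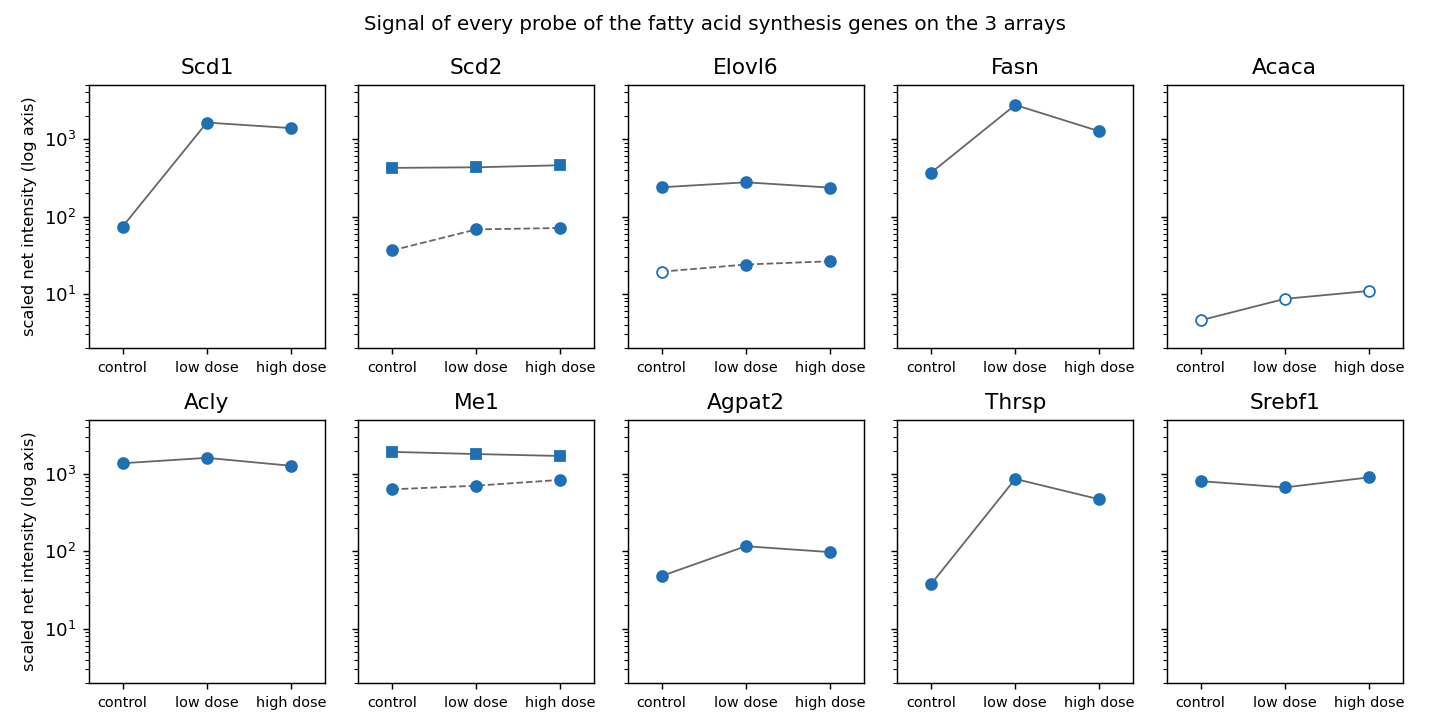
Scaled net intensity (log axis) of each probe of the 10 genes under control, the low dose and the high dose. Circles are probes with 1 spot and squares probes with 10 spots. Open symbols are not above background, and dashed lines join a gene's second probe. Scd1, Fasn, Thrsp and Agpat2 are higher on both dose arrays, and Acaca is open throughout. The solid lines of the other genes run nearly level. The dashed line of Scd2 rises from 36.5 to 68.2 and 71.1, that of Me1 from 630.2 to 703 and 835.5, and that of Elovl6 from 19.4 to 24.0 and 26.5.

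Scd1 encodes stearoyl-CoA desaturase, which puts the double bond into stearate and palmitate to give oleate and palmitoleate. Its probe (A_64_P085530, 1 spot) had a signal of 74.2 under control, 1634 at the low dose and 1386 at the high dose. Both dose arrays stood far above control and close to each other. The difference was 4.46 at the low dose, or 22.0-fold, and 4.22 at the high dose, or 18.7-fold. It ranked 3 from the top of 9738 genes at the low dose and 1 of 9895 at the high dose. The software did not flag the low-dose spot as good, although its signal-to-noise ratio was 189, and the spots printed around it had median differences of 0.04 and 0.05 at the low and high dose. The authors' deposited table gives 6.25 on the control array, 10.82 at the low dose and 10.5 at the high dose on its log2 scale for this probe.

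Scd2, the desaturase known in rodents from brain and from skin, was measured by 2 probes. The probe with 10 spots (A_42_P813567) had a mean signal of 425 on the control array, 432 at the low dose and 459 at the high dose, with SDs over spots of 55.1, 51.7 and 50.01. Its ranges over spots overlapped on all 3 arrays. Compared spot by spot, the low dose differed from control by 0.03 ± 0.06 (SD over 10 spots), positive at 6 of 10 spots, and the high dose by 0.12 ± 0.06, positive at 10 of 10. These spots repeat 1 pool and are no replicates of a dose. The probe with 1 spot (A_64_P154537), described in the files as acyl-CoA desaturase 2 and given no RefSeq transcript, had signals of 36.5, 68.2 and 71.1 under control, the low dose and the high dose. Its differences of 0.90 and 0.96 stayed below 2-fold, and were larger than those of the probe with 10 spots by more than the spread between spots. The mean over both probes was 0.46 at the low dose and 0.54 at the high dose.

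Scd4, a neighbour of both in the genome that was not in the set, had signals of 97.0 on the control array, 275 at the low dose and 231 at the high dose. It stood 1.501 and 1.25 above control, so 2 of the 3 adjacent desaturase genes passed 2-fold at both doses; with a normexp background correction, Scd4 was at 1.09 and 0.89. Scd genes are close in sequence, and whether a probe of one also binds transcripts of another was not tested.

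**Figure D2:**
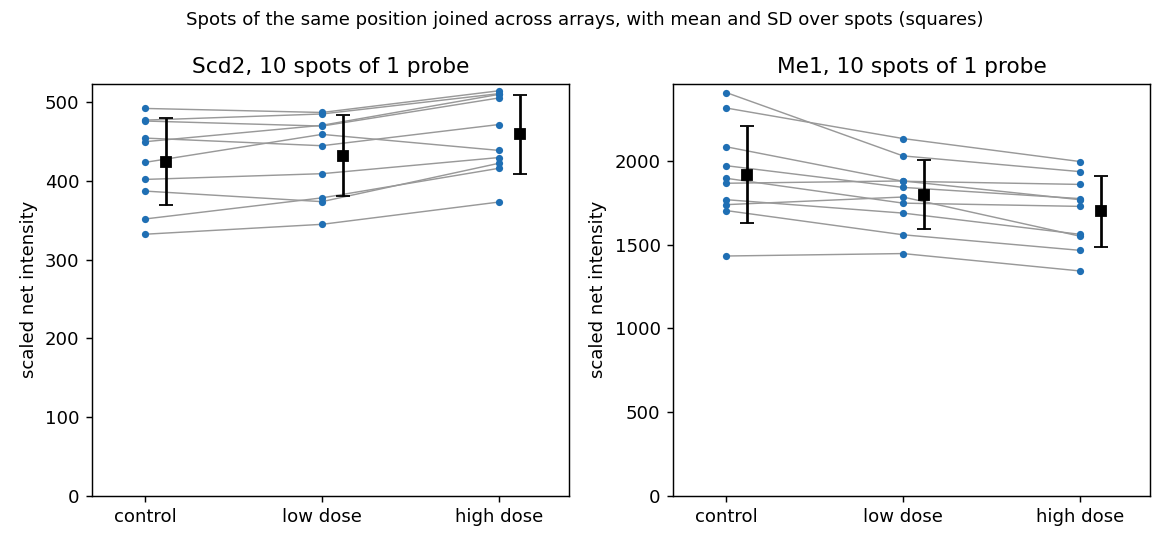
Scaled net intensity of each of the 10 spots of the Scd2 and Me1 probes under control, the low dose and the high dose, with lines joining the same printed position and squares giving the mean ± SD over spots. Spots of 1 array range more widely (332 to 492 for Scd2 on the control array) than the means of the 3 arrays do.

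Fasn encodes fatty acid synthase, the enzyme that builds palmitate. Its probe (1 spot) had a signal of 368 under control, 2758 at the low dose and 1259.6 at the high dose. Both doses stood above control, and the high dose stood between the other arrays. The difference was 2.91, or 7.50-fold, at the low dose and 1.78, or 3.43-fold, at the high dose. A further probe without a gene name, described in the files as the rat FAS gene, had signals of 9.13, 7.68 and 15.5 and was above background on 0 arrays, so it gives no second reading.

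Thrsp encodes Spot 14, a thyroid hormone responsive protein that in rodents accompanies fatty acid synthesis in liver and fat. Its signal (1 spot) was 37.7 under control, 859.5 at the low dose and 468 at the high dose. The control spot was dim but above background, with a signal-to-noise ratio of 4.25, and the dose arrays were well clear of it. The difference was 4.51 at the low dose, or 22.8-fold, rank 2 of all genes, and 3.63 at the high dose, or 12.4-fold, rank 3.

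Agpat2, an acyltransferase that makes phosphatidic acid on the way to triglyceride and is known for its role in fat storage, had signals (1 spot) of 47.9 under control, 116 at the low dose and 97.6 at the high dose. Its differences of 1.28 and 1.03, or 2.42-fold and 2.04-fold, lie just past the 2-fold line, at rank 133 from the top at the low dose and 77 at the high dose. With a normexp background correction (offset 50) Agpat2 stood at 0.67 and 0.49 and no longer reached 2-fold. Under the same correction Scd1 stood at 3.67 and 3.47 and Thrsp at 3.24 and 2.44, while Fasn, brighter on the control array, stood at 2.76 and 1.68.

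Of the enzymes of the set that make acetyl-CoA and malonyl-CoA for the synthase, Acly was near control and Acaca could not be measured. Acly, ATP citrate lyase, which makes cytosolic acetyl-CoA, had signals of 1369.9 under control, 1608 at the low dose and 1269.7 at the high dose, differences of 0.23 and -0.11. Acaca, acetyl-CoA carboxylase, which makes malonyl-CoA, had signals of 4.57, 8.64 and 10.9. None of these was above background, and its spot lies in a corner of the array where the control array's signal was weak, so no fold is given for it.

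Me1, malic enzyme, a source of NADPH, was read by 2 probes that disagreed in sign. The probe with 10 spots had signals of 1919.7 on the control array, 1800.0 at the low dose and 1699 at the high dose, with SDs over spots of 293, 205 and 212, so that the spots of the arrays overlap. Spot by spot the low dose differed from control by -0.09 ± 0.09 (SD over 10 spots), positive at 3 of 10, and the high dose by -0.17 ± 0.07, positive at 0 of 10. The probe with 1 spot had signals of 630.2, 703 and 835.5, differences of 0.16 and 0.41. The mean over both probes was 0.03 at the low dose and 0.12 at the high dose, so the direction of Me1 depends on the probe.

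Elovl6, the elongase that turns palmitate into stearate, had signals of 239 on the control array, 277 at the low dose and 236 at the high dose for its brighter probe. These differ by 0.21 and -0.01. The second probe was not above background on the control array, at 19.4, and had 24.0 at the low dose and 26.5 at the high dose, at least 1.24-fold and 1.36-fold higher. The mean over both probes at the high dose was 0.22, so that the sign there also depends on the probe.

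Srebf1, which encodes the transcription factor SREBP1, had signals (1 spot) of 805 under control, 667 at the low dose and 898 at the high dose. The low dose lay below control, at -0.27, and the high dose above it, at 0.16. Neither difference came near those of Scd1, Fasn and Thrsp. The array measures transcript and not the processed protein.

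**Figure D3:**
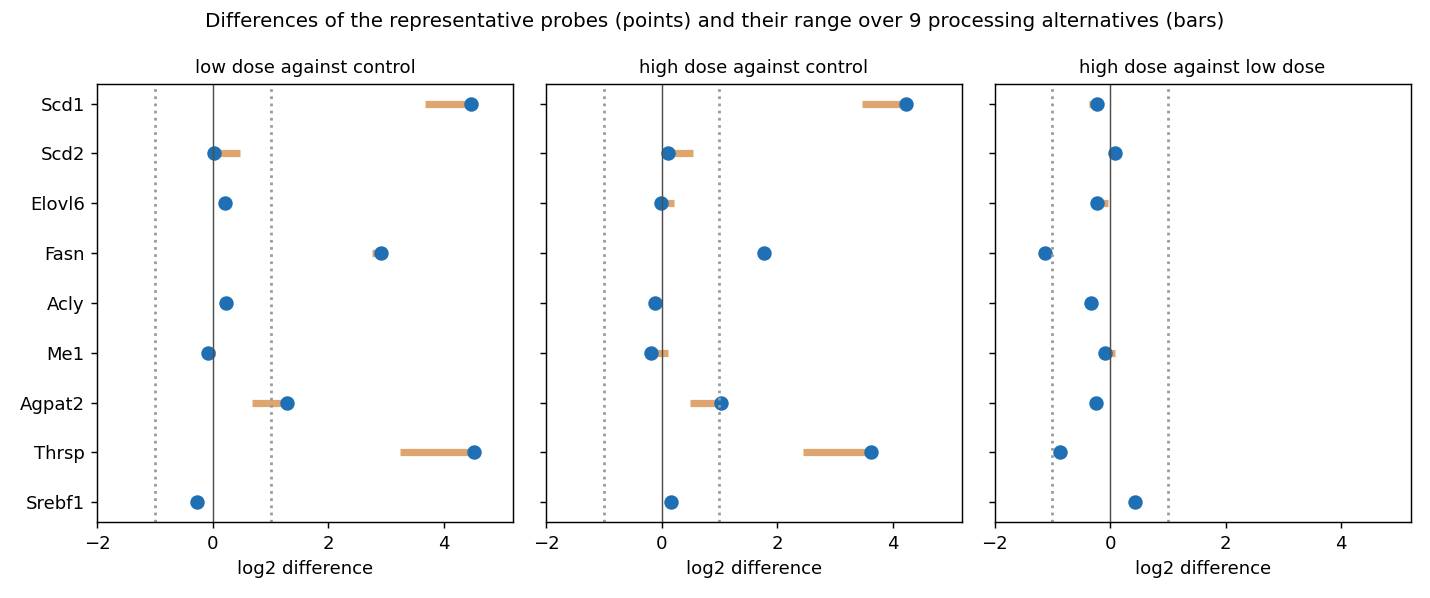
Log2 difference of the representative probe of 9 genes (points) for low dose against control, high dose against control and high dose against low dose, with bars from the lowest to the highest value over the processing alternatives. Dotted lines mark 2-fold; Scd1, Thrsp and Fasn stay past it at both doses under each alternative, Agpat2 does not.

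Set against the low dose, the high dose was lower in 7 of the 9 genes and higher in 2, with a median of -0.24, where all 10140 named genes above background on both arrays had a median of 0.04. Of the 9, 0 were at least 2-fold higher and 1 was at least 2-fold lower, while 0.464% of all named genes were higher and 1.48% lower by that much. Fasn was the one past 2-fold, with a signal of 1259.6 on the high-dose array, against 2758 on the low-dose array, a difference of -1.13. Thrsp came next at -0.88, then Acly at -0.34. Scd1 and Agpat2 differed by -0.24 and -0.25. The highest value was that of Srebf1, at 0.43. The doses share no array here, but their differences from control share the control array, so a similar pattern at both doses is in part built in.

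**Figure D4:**
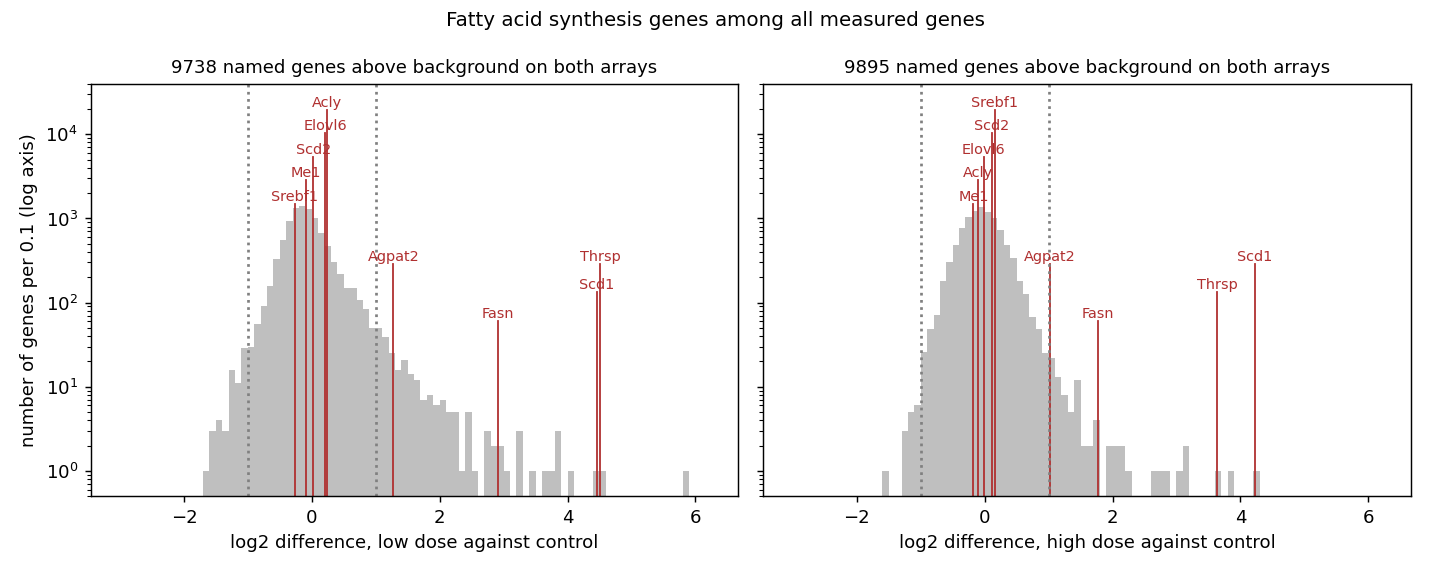
Histogram of the log2 difference from control of all named genes above background on both arrays, at the low dose (left, 9738 genes) and the high dose (right, 9895 genes), with the 9 measurable genes marked in red and the count axis on a log scale. Scd1, Thrsp and Fasn lie in the far right tail at both doses, Agpat2 at its edge, and the other 5 in the main body.

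The genes around the set were taken as 9 lists, with 116 of their genes on the array, of which 106 are not among the 10. Pgd, Hacd2, Plin4 and Pnpla3 were listed but not found on the array. Of the 106, 83 were above background at the low dose and on the control array. Of these 83, 6 were at least 2-fold higher and 0 lower, with 31 above 0 and 52 below and a median of -0.05. At the high dose 5 of 83 were higher and 0 lower, with 39 above 0 and 44 below and a median of -0.02. These are 7.23% at the low dose and 6.02% at the high dose, beside 2.50% and 0.849% of all named genes past 2-fold higher, while the medians lay close to control. The lists were chosen with these data known, so the shares are a description.

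In acetyl-CoA supply and in NADPH supply, 0 of 6 measurable genes each passed 2-fold at either dose. Acss2, which makes acetyl-CoA from acetate, had signals of 1146 on the control array, 669 at the low dose and 1149 at the high dose, the widest shift of the acetyl-CoA list at -0.78 for the low dose. The citrate carrier Slc25a1 was at 0.05 and 0.23.

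Among synthase, elongation and desaturation genes, 3 of 14 passed 2-fold at the low dose and 3 of 15 at the high dose, namely Scd1, Fasn and Scd4 each time. The elongase Elovl1 had signals of 8052 on the control array, 5841 at the low dose and 5037 at the high dose, differences of -0.46 and -0.68. The delta desaturases Fads1 and Fads2 were at -0.22 and 0.37 at the low dose and at 0.00 and 0.50 at the high dose. Fatty acid activation had 0 of 4 genes past 2-fold, with Acsl5, an acyl-CoA synthetase, at 0.72 and 0.54.

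In glycerolipid assembly, Agpat2 and Dgat2 passed 2-fold at the low dose, 2 of 12, and Agpat2 alone at the high dose. Dgat2, which makes the last bond of triglyceride, had signals of 574 on the control array, 1167 at the low dose and 887 at the high dose, differences of 1.02 and 0.63. With median pixel intensities its low-dose difference was 0.97, under 2-fold.

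Among regulators, Thrsp and Pparg passed 2-fold, 2 of 18 at each dose. Pparg, the nuclear receptor that directs fat cell formation, had signals of 70.8 on the control array, 227 at the low dose and 148 at the high dose, differences of 1.68 and 1.06; the second was 0.64 with normexp. Insig1, a sterol-sensing brake on SREBP processing, was at 0.14 and 0.84. Mlxipl, which encodes the sugar-responsive factor ChREBP, was at -0.34 and -0.17, the liver X receptor gene Nr1h3 at -0.33 and -0.38, and Mid1ip1, a relative of Thrsp, at 0.15 and 0.34.

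In the lists of lipid droplet and lipolysis genes and of mitochondrial fatty acid synthesis, 1 gene each passed 2-fold at both doses. Cidea, a lipid droplet protein of brown fat, had signals of 486 on the control array, 3413 at the low dose and 1347 at the high dose, differences of 2.81 and 1.47. Hsd17b8, of the mitochondrial list, stood at 1.80 and 1.97, with its spot in that weak corner of the array.

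**Figure D5:**
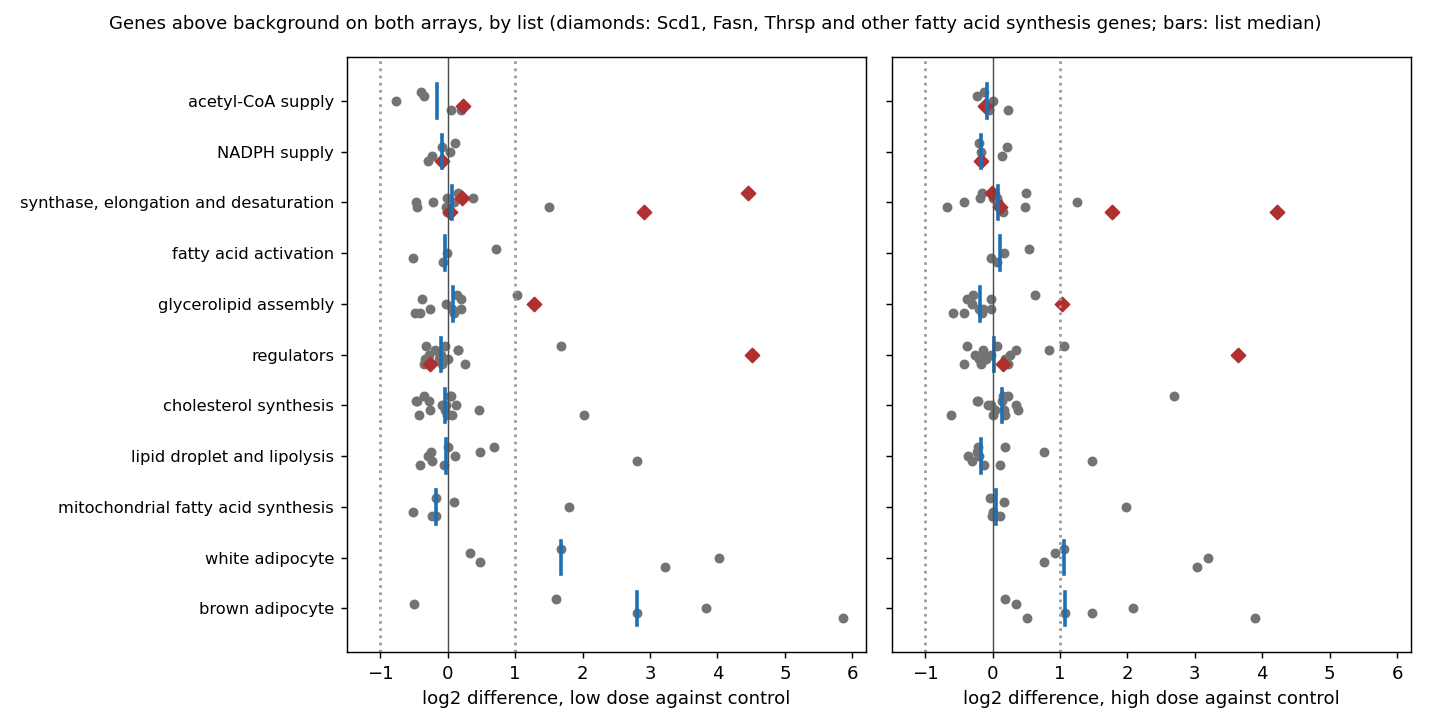
Log2 difference from control of the genes above background on both arrays, by list, at the low dose (left) and high dose (right), with diamonds for the 10 chosen genes where measured, circles for other genes and bars for list medians. The lists of the pathway centre near 0, with 1 to 3 genes each past 2-fold in some of them. The medians of the white and brown adipocyte marker lists lie to the right. Drawn are 5 white markers at each dose, and 5 brown markers at the low dose and 7 at the high dose. Ebf2 and Otop1, not above background at the low dose and lower there, are not drawn in that panel.

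Many but not all markers of fat cells, which a kidney sample can carry from the fat around it, stood higher on the dose arrays as well. Of 12 white adipocyte markers, 5 were above background on the control array, 9 at the low dose and 9 at the high dose, and their summed signal was 651 on the control array, 3788 at the low dose and 3006 at the high dose. Adipoq, the hormone adiponectin, had signals of 83.3, 779 and 680.4 under control, the low dose and the high dose, and Fabp4, the fat cell fatty acid carrier, 62.8, 1021 and 576. Cfd was at least 25.6-fold higher at the low dose and at least 15.1-fold higher at the high dose, and Retn at least 16.8-fold and 19.1-fold. Adrb3 was at least 4.35-fold and 5.39-fold higher. Other markers moved less: Lpl was at 0.33 at the low dose and 0.93 at the high dose, and Cidec at 0.48 and 0.77. Lipe was at least 1.07-fold and 1.05-fold higher. Lep, Plin1 and Cebpa were above background on 0 arrays.

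Of 12 brown adipocyte markers 10 were on the array, 7 above background on the control array, 5 at the low dose and 7 at the high dose, with a summed signal of 1044, 7665 and 3024. Ucp1, the uncoupling protein of brown fat, had signals of 37.4 on the control array, 2180.4 at the low dose and 555 at the high dose. Not every marker on this list was higher: at the low dose Ppargc1a was at -0.51, Ebf2 at least 1.60-fold lower and Otop1 at least 1.96-fold lower, while at the high dose they were at 0.34, 0.18 and 0.51. Dio2, Elovl3 and Zic1 were above background on 0 arrays. Cidea is on this list and Pparg on the white adipocyte list, so 2 of the 6 surrounding genes past 2-fold at the low dose are also fat cell markers. The summed signal of the 8 proximal tubule markers was 101268 at the low dose and 93384 at the high dose, against 125550 on the control array. That of the 6 principal cell markers was 38166 and 24755, against 15931 on the control array. Of these 6 markers, 4 were higher and 2 lower at each dose. Aqp2, the water channel of the collecting duct, was at 1.34 and 0.62, while Scnn1b was at -0.25 and -0.11 and Scnn1g at -0.27 and -0.36. The summed signal of the 5 macrophage markers was 1871 and 1019, against 912 on the control array. At each dose 4 of them were measurable against control, 3 higher and 1 lower. The lower one was Csf1r at the low dose, at -0.28, and Cd68 at the high dose, at -0.10. Outside the fat cell lists, the summed signals of principal cell and macrophage markers were thus higher at both doses, but not every marker in them was. Besides the proximal tubule sum, those of thick ascending limb, distal convoluted tubule, intercalated cell and podocyte markers were lower than control at both doses. The endothelial sum was 3249 at the low dose and 2925 at the high dose, against 3234 on the control array. The part of fat cells or of these other cell types in the differences of Scd1, Thrsp, Fasn and Agpat2 was not tested, and in pooled tissue RNA more cells of a type and more RNA per cell cannot be told apart.

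Likeness between genes was measured as the distance between their low-dose and high-dose differences from control, over 9644 other genes and 3 arrays. Nearest to Scd1 were Thrsp (0.59), Fabp4 (1.12) and Ucp1 (1.44). Nearest to Thrsp were Scd1 (0.59), Fabp4 (0.66) and Uchl1 (1.08), and nearest to Fasn were Cidea (0.32), Serinc2 (0.49) and Akr1b1 (0.53). With 3 arrays, of which control enters both differences, this ranks patterns and does no more.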

How the data were processed

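Kidney RNA of 3 groups was measured on 3 one-colour Agilent arrays that share 1 slide, so an array's place on the slide cannot be told apart from its group. A further high-dose array of that slide was not analysed here. Per the file headers, the authors read each spot's intensity at 532 nm with GenePix Pro 6.1.0.4 at a gain of 550 and subtracted a background of 39 (control, high dose) or 40 (low dose). Agilent Feature Extraction is the tool in the submitters' processing notes. A mouse design stands in the header of the high-dose file, but its spots carry the rat annotation. The signal-to-noise score and flag of each spot and its percent of saturated pixels were deposited too, per the file headers. A table of log2 values was also deposited, and the sources used here do not give its scaling; all 3 columns had a median of 4.77, and each correlated best with its own array (r of 0.999 or more).

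Control spots, bright spots the software did not find (6, 5 and 6) and spots whose pixel mean and median differed over 1.5-fold (165, 138 and 80) were left out. Net means were averaged over a probe's spots, scaled to an equal 75th percentile (factors 1.14, 0.960 and 0.912), set to at least 1 and taken as log2. Probes were named through the RefSeq gene table of GRCr8. Where a gene had several probes, the one above background on more arrays represented it, and among equals the brightest. A gene counted at 2-fold or more with its probe above background on both arrays. Where only 1 array measured it, an at-least fold was taken against the dim probe's own signal or that array's lowest measured signal (13.7, 11.5 and 8.21), whichever was higher. The rule was tested on simulated data, with changes larger than 2-fold set only in brighter probes and with no spread between animals. That run does not cover probes as dim on the control array as those of Thrsp and Agpat2. The genes, the 9 lists and the rule for named genes (all 10 genes, and list genes past 2-fold or showing a list's range) were chosen with earlier results of these data known. Some genes of the lists are counted but not reported here by name. Python 3.11.15, pandas 2.3.3 and numpy 2.4.6 were used, with R 4.3.3 and limma 3.58.1 for normexp. The number of arrays limits the precision. The alternatives tried were normexp, quantile scaling, the percentile over measured probes, median pixels, a floor of 10, the authors' values, the mean over probes, non-uniform spots kept, the weak corner left out and a 1.5-fold threshold.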

Additional observations from a re-analysis of the deposited data

How the results depend on the processing

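Scd1, Thrsp and Fasn stayed at least 2-fold above control at both doses under each of the 9 alternatives, within 3.67 to 4.57 and 3.47 to 4.26 for Scd1, 3.24 to 4.55 and 2.44 to 3.67 for Thrsp, and 2.76 to 2.94 and 1.68 to 1.82 for Fasn (log2, low and high dose). With normexp, 133 named genes stood 2-fold or more higher and 23 lower at the low dose, 37 and 2 at the high dose, and 19 and 70 for high against low dose; its share of higher genes among those past 2-fold was 94.9% at the high dose, against 84.8% as reported. The authors' values gave 29 lower genes at the high dose. At a 1.5-fold threshold 654 genes were higher and 442 lower at the low dose, 368 and 375 at the high dose, and 409 and 560 for high against low dose, and 2 of the 9 genes of the set were lower at the high than at the low dose. The cause of these changes was not tested, and the normexp model and its offset were changed together. Taking the mean over probes changed the sign of Me1 in all 3 comparisons and of Elovl6 at the high dose, where 4 of the 9 alternatives gave a sign other than that of the near-zero difference reported. With normexp Agpat2 and Scd4 (0.67 and 1.09 at the low dose, 0.49 and 0.89 at the high dose) lost 2-fold, Agpat2 at both doses and Scd4 at the high dose. Dim control signals limit the size of the folds of Scd1, Thrsp and Agpat2. Acaca was not above background on any array and stays unmeasured. No paired analysis was possible because each group has 1 array.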
